A study of Gallus gallus with 16 samples.

Results

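Fibroblasts and the extracellular matrix they build were followed through 64 genes of the chicken duodenum, of 13009 genes with a named probe set on the array. A gene was taken when its symbol in the platform annotation began with COL, digits, A and a digit, which is the pattern of collagen chains, or when it was 1 of 22 further named matrix and fibroblast genes. The rule goes by gene names and uses no group difference, but the members were chosen with earlier results of these data known. The 64 genes had 175 of the 38439 probe sets, and 1 probe set stood for each gene, the one with the highest mean over the 16 arrays. Of the 64 symbols, 41 name collagen chains. The symbol COL4A3BP fits the pattern by its letters but encodes a ceramide transfer protein and no collagen, and it was kept because the rule takes it.

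The wall of the duodenum rests on connective tissue: a loose lamina propria inside each villus, a dense submucosa and sheets between the muscle layers. Fibroblasts secrete fibrillar collagens, which are trimmed and cross-linked outside the cell, and they surround the fibrils with small proteoglycans and adhesive glycoproteins, while collagen IV, laminin and nidogen form the basement membrane under the epithelium and around vessels and muscle cells. Matrix metalloproteinases cut this scaffold, and tissue inhibitors of metalloproteinases restrain them. The roles given for single genes are largely those worked out in mammals.

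Residual feed intake compares what a bird eats with the intake predicted from its body weight and gain, so that a low value marks an efficient bird. Birds of a chicken population selected in opposite directions for it, low (LRFI) and high (HRFI), gave duodenum at 35 and 42 days of age, and RNA was measured on 1-colour Affymetrix chicken arrays with 4 arrays a group: LRFI at day 42, HRFI at day 42, LRFI at day 35 and HRFI at day 35. Nothing in the labels tells if each array holds RNA of its own bird or of a pool, and they name no sex and no processing batch. The p-values therefore measure the spread among arrays, which can be technical. Values are log2 expression levels, so a difference of 1 is a doubling.

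The arrays resembled each other, with correlations between 2 arrays of 0.971 to 0.994 across probe sets and array medians of 5.05 to 5.10. Genes of the enterocyte, the absorptive cell of the duodenum, were read well: none of 17 measured markers lay near the floor, taken as 3.75, the 25th percentile of all values. Some arrays stood apart. The mean of 12 pancreatic enzyme genes was 10.53 on LRFI day 42 replicate 2 and 12.87 on HRFI day 35 replicate 3, against 4.81 to 5.77 on the other 14 arrays. The 3′ actin probe set, a check of RNA integrity, lay more than 1 above its 5′ partner on 5 arrays, which were LRFI day 35 replicates 3 and 4, HRFI day 42 replicate 4, and HRFI day 35 replicates 2 and 3. In whole tissue, fewer cells of a type and less RNA per cell cannot be told apart.

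The means of 50 of the 64 genes lay above 5.07, the median of all probe set means, as did those of 9594 of the 13009 named genes, each read by its brightest probe set. Only 2 lay under the floor of 3.75: COL11A1, a fibrillar chain best known from cartilage (3.55), and COL10A1, the collagen of hypertrophic cartilage (2.81). A probe set's brightness depends on its probes as well as its transcript, so the level of one gene is not set against that of another. The 9 fibrillar collagens, which make or join the main fibrils, were COL1A1, COL1A2, COL2A1, COL3A1, COL5A1, COL5A2, COL11A1, COL24A1 and COL27A1. Collagen VI, the beaded filament around cells and fibrils, was read through COL6A1, COL6A2, COL6A3 and COL6A6. The 11 basement membrane genes were the collagen IV chains COL4A1 to COL4A6, the anchoring fibril chain COL7A1, COL15A1 and COL18A1, laminin LAMA2 and nidogen NID1. The 10 chains that attach to fibrils were COL9A1, COL9A2, COL9A3, COL12A1, COL14A1, COL16A1, COL19A1, COL20A1, COL21A1 and COL22A1. COL13A1, COL17A1, COL23A1 and COL25A1 span the cell membrane, and COL8A1, COL8A2, COL10A1, COL26A1 and COL28A1 complete the collagens. The rest were the small leucine-rich proteoglycans LUM, DCN, BGN, OGN and FMOD, the secreted glycoproteins FN1, SPARC, VCAN, POSTN, MGP, TNC and FBN1, the enzymes MMP2 and LOX with the inhibitors TIMP2 and TIMP3, and VIM, THY1, PDGFRA and PDGFRB, which mark fibroblasts and related mesenchymal cells.

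No gene of the 64 passed at an adjusted p under 0.05 in any of the 7 comparisons of limma, a linear model with a moderated spread, adjusted by Benjamini-Hochberg over all 38439 probe sets. The strongest was MGP, matrix Gla protein, a secreted inhibitor of calcification that smooth muscle and connective tissue cells make. It read 12.28, 12.22, 12.37 and 12.51 on the LRFI day 42 arrays and 12.28, 11.84, 12.62 and 12.60 on the HRFI day 42 arrays. At day 35 it read 12.84, 12.91, 12.91 and 12.69 in LRFI and 13.11, 12.90, 12.88 and 12.92 in HRFI. Every day 42 array of both lines lay below every day 35 array. The mean was 12.34 ± 0.25 at day 42 and 12.90 ± 0.11 at day 35 (SD, n = 8 each), a difference of −0.56 (SE 0.098) with a limma p of 3.76e-05 and an adjusted p of 0.0652, just short of the threshold. MGP was the single member of 64 whose arrays did not overlap between the ages in this direction over both lines, where 0.0234% of all probe sets showed it. Without the 2 arrays with pancreatic enzymes the difference was −0.55 (adjusted p = 0.159), and without the 5 arrays with high actin differences −0.65 (adjusted p = 0.199). Over the other settings tried the adjusted p ran from 0.0456 to 0.165. It was under 0.05 in 2 of them, when each gene was tested by the average of its probe sets and when dim probe sets were left out beforehand. MGP has 1 probe set, so its values were the same in these 2 settings. They adjusted over 13009 and 19219 features, against 38439 in the main fit.

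**Figure D1:**
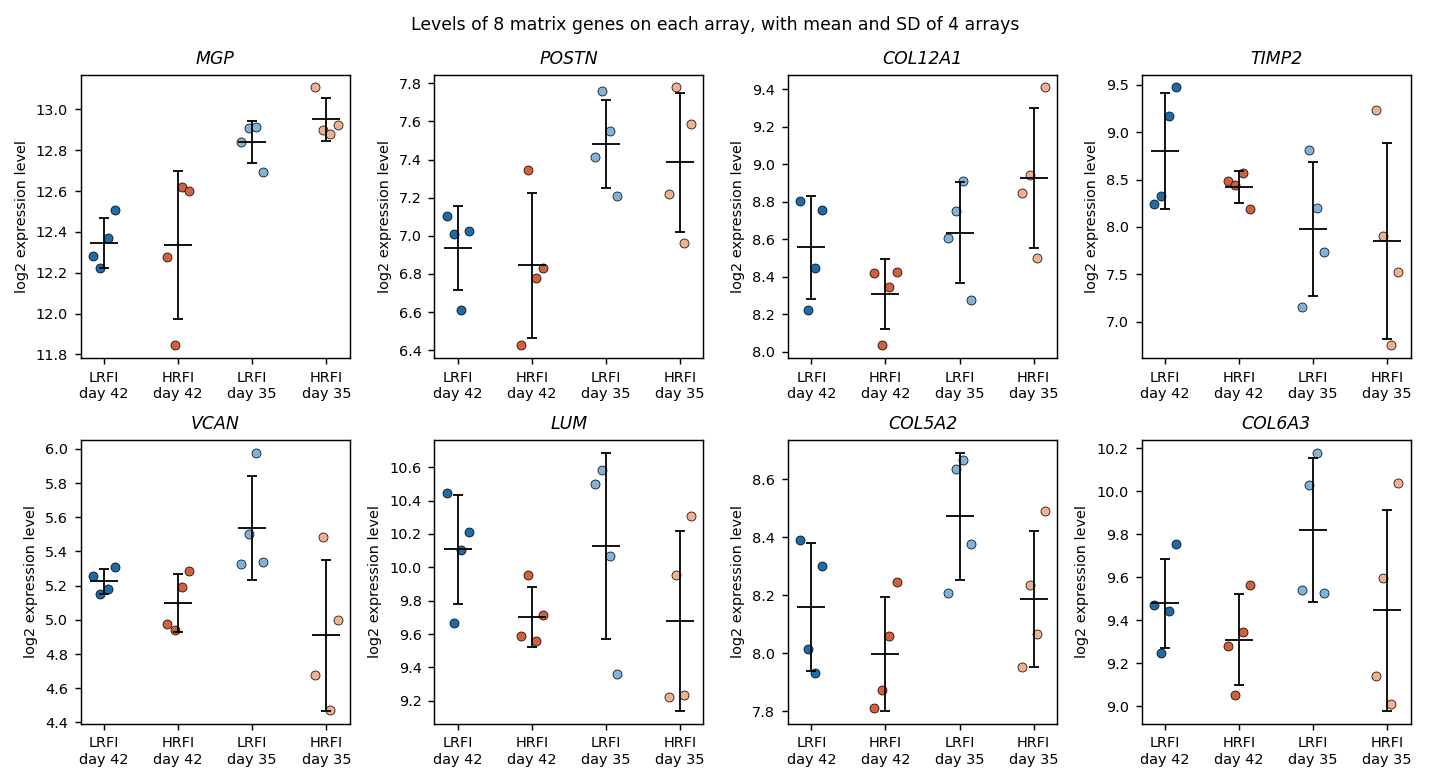
Log2 expression level of MGP, POSTN, COL12A1, TIMP2, VCAN, LUM, COL5A2 and COL6A3 on each of the 16 arrays (points), by group, with the mean (long bar) and SD (whiskers) of 4 arrays. MGP is the gene whose day 42 arrays all lie below its day 35 arrays, at means of 12.34 and 12.90, while in each of the other panels the 8 day 42 arrays overlap the 8 day 35 arrays.

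Averaged over both lines, 9 of the 64 genes had an unadjusted p under 0.05 for day 42 minus day 35 (7 lower and 2 higher), where 11.8% of all probe sets had one and 0.0026% passed after adjustment. Read by 1 brightest probe set each, as the members were, 15.1% of the 13009 named genes had one, against 14.1% of the members, and in the other 6 comparisons 5.58% to 11.8% of named genes. A larger share of the members leaned down, 44 of 64 (68.8%) being lower at day 42 with a median difference of −0.09. Over all probe sets 54.2% were lower, with a median of −0.01, and of named genes 52.7%. Several members moved together across the arrays, so this share does not count independent genes, and it was not tested. The mean of the 64 genes ran from 7.0608 to 7.3063 in LRFI day 42 and from 7.1626 to 7.4035 in LRFI day 35. In HRFI it ran from 6.9998 to 7.2445 at day 42 and from 7.0968 to 7.3721 at day 35. The ages thus overlapped in both lines. Beside MGP the lower genes were led by POSTN, periostin, a secreted glycoprotein of collagen-rich tissue under mechanical load. POSTN read 7.11, 7.01, 6.61 and 7.03 in LRFI day 42 and 6.42, 7.35, 6.78 and 6.83 in HRFI day 42. The day 35 arrays read 7.41, 7.76, 7.55 and 7.21 in LRFI and 7.22, 7.78, 6.96 and 7.58 in HRFI. The ages overlapped within HRFI and not within LRFI, and the difference was −0.54 (SE 0.14, adjusted p = 0.173). The dim probe set of POSTN (mean 3.15, under the floor) differed in the same direction, by −0.22 (SE 0.072).

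The fibrillar collagens leaned the same way, with 8 of 9 lower at day 42, although none passed. COL5A1, a minor chain that sets the diameter of collagen I fibrils, averaged 9.0 ± 0.30 at day 42 and 9.41 ± 0.36 at day 35 (SD, n = 8 each), a difference of −0.41 (SE 0.15, adjusted p = 0.307). Its partner COL5A2 differed by −0.25 (SE 0.10, adjusted p = 0.363). COL3A1, the fine fibril collagen of distensible organs, averaged 12.73 ± 0.26 in LRFI day 42, 12.60 ± 0.21 in HRFI day 42, 12.92 ± 0.20 in LRFI day 35 and 12.73 ± 0.26 in HRFI day 35 (SD, n = 4 each). COL1A2, a chain of collagen I, averaged 10.41 ± 0.35, 10.16 ± 0.35, 10.53 ± 0.34 and 10.24 ± 0.54 in the same groups. In both genes the groups overlapped, and the age differences were −0.16 (SE 0.11) for COL3A1 and −0.09 (SE 0.18) for COL1A2. COL1A1, the other chain of collagen I, averaged 11.30 ± 0.40 in LRFI day 42 and 11.02 ± 0.53 in HRFI day 42. At day 35 it averaged 11.71 ± 0.34 in LRFI and 11.39 ± 0.50 in HRFI (SD, n = 4 each).

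Collagen VI and the group of secreted matrix proteins held 3 of 4 and 6 of 7 genes with lower values at day 42. COL6A3, which carries the long adhesive chain of collagen VI, averaged 9.48 ± 0.21 in LRFI day 42, 9.31 ± 0.21 in HRFI day 42, 9.82 ± 0.34 in LRFI day 35 and 9.45 ± 0.47 in HRFI day 35. SPARC, a collagen-binding glycoprotein, averaged 10.32 ± 0.21, 10.12 ± 0.42, 10.54 ± 0.18 and 10.38 ± 0.32 in those groups. FN1, fibronectin, which links cells to collagen, averaged 11.73 ± 0.29, 11.62 ± 0.46, 11.89 ± 0.27 and 11.93 ± 0.39 (SD, n = 4 in each case). The age differences of the 3 genes lay between −0.24 and −0.23, and their adjusted p-values between 0.517 and 0.605. VIM, vimentin, the intermediate filament of mesenchymal cells, averaged 9.31 ± 0.25 in LRFI day 42, 9.14 ± 0.13 in HRFI day 42, 9.63 ± 0.38 in LRFI day 35 and 9.34 ± 0.48 in HRFI day 35, with an age difference of −0.26 (SE 0.15).

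The remaining lower genes with an unadjusted p under 0.05 were COL12A1 (−0.35, SE 0.13) and COL20A1 (−0.23, SE 0.091), which attach to fibrils, and the inhibitor TIMP3 (−0.29, SE 0.12). The higher ones were TIMP2 and COL15A1, a chain found where basement membranes meet fibrils. COL15A1 averaged 5.91 ± 0.086 at day 42 and 5.71 ± 0.16 at day 35 (SD, n = 8 each), a difference of 0.20 (SE 0.071, adjusted p = 0.3). TIMP2, which restrains metalloproteinases and helps to activate MMP2, read 8.24, 8.33, 9.17 and 9.47 in LRFI day 42 and 8.48, 8.44, 8.57 and 8.19 in HRFI day 42. At day 35 it read 7.16, 8.81, 8.20 and 7.74 in LRFI and 9.23, 7.90, 6.75 and 7.53 in HRFI. The day 35 arrays spread widely and overlapped the day 42 ones, the lowest 5 of all 16 arrays being from day 35, and the difference of 0.70 (SE 0.31) had an adjusted p of 0.39. Without the 5 arrays with high actin differences it was 0.47 (SE 0.38). The dim probe set of TIMP2 (mean 3.04, under the floor) differed by −0.25 (SE 0.073), in the opposite direction. COL14A1, a fibril-associated chain, was next among the higher genes, at 0.15 (SE 0.098, adjusted p = 0.579). LUM and DCN, the lumican and decorin that coat collagen fibrils, showed age differences of 0.0012 (SE 0.19) and 0.14 (SE 0.18).

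**Figure D2:**
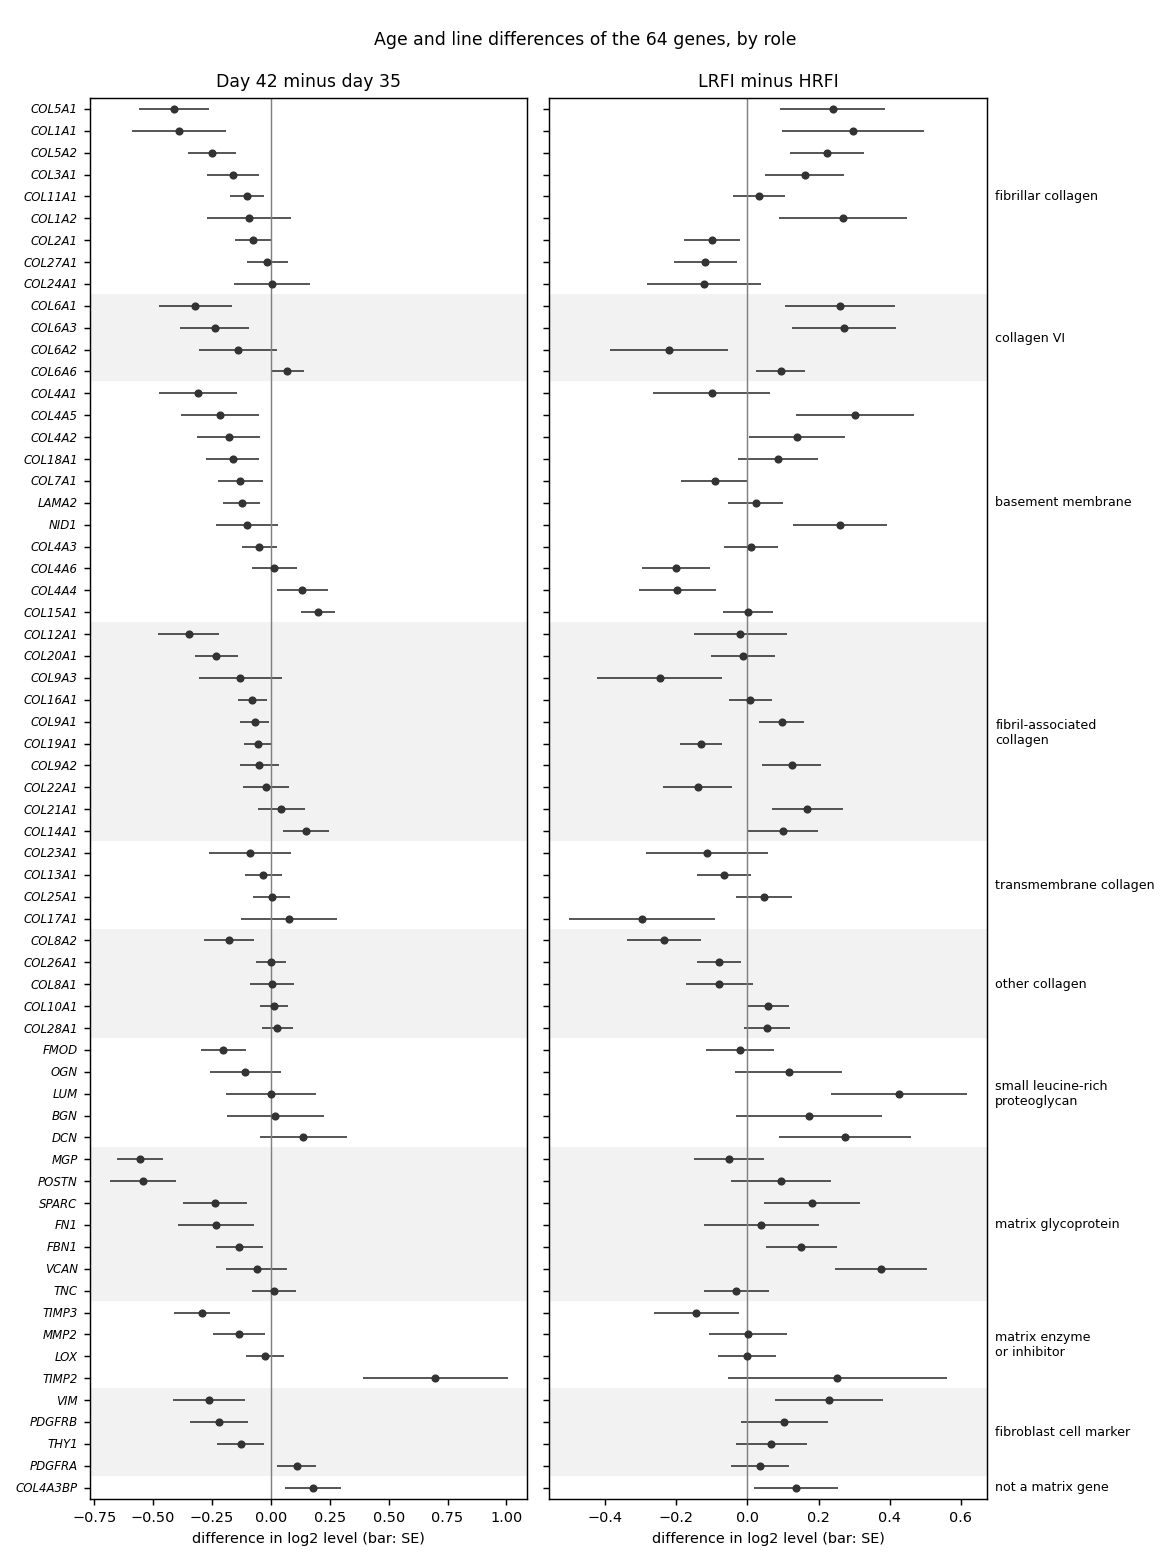
Difference in log2 level of each of the 64 genes (points) with its limma SE (bars), day 42 minus day 35 averaged over both lines at left and LRFI minus HRFI averaged over both ages at right, grouped by role. MGP and POSTN lie farthest below 0 at left (−0.56 and −0.54) and TIMP2 farthest above it (0.70), and at right LUM (0.43) and VCAN (0.38) lie farthest above 0 while no gene passed.

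Within LRFI alone, 6 of 64 genes had an unadjusted p under 0.05 between the ages (5 lower and 1 higher), where 9.83% of all probe sets had one and 0% passed. The 4 genes MGP, POSTN, COL6A2 and VCAN had every day 42 array below every day 35 array, as had 2.83% of all probe sets. On the other COL6A2 probe set and the other VCAN probe set the ages overlapped. MGP differed by −0.49 (SE 0.14, adjusted p = 0.296), POSTN by −0.54 (SE 0.20, adjusted p = 0.412) and FBN1, fibrillin of the elastic microfibrils, by −0.36 (SE 0.14, adjusted p = 0.454). COL15A1 (0.26, SE 0.10), COL13A1 (0.22, SE 0.11) and TIMP2 (0.82, SE 0.44) led in the other direction, with adjusted p-values of 0.431 to 0.554. Within HRFI, 8 genes had an unadjusted p under 0.05 (7 lower and 1 higher), where 8.28% of all probe sets had one and 0% passed. The 2 genes MGP and COL12A1, each read by its chosen probe set, had all day 42 arrays below all day 35 arrays, as had 2.46% of all probe sets.

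MGP differed by −0.62 (SE 0.14, adjusted p = 0.273) in HRFI. COL12A1 averaged 8.31 ± 0.19 in HRFI day 42 and 8.93 ± 0.37 in HRFI day 35 (SD, n = 4 each), a difference of −0.62 (SE 0.18, adjusted p = 0.386). Its next brightest probe set differed by −0.73 (SE 0.23). On that probe set the ages overlapped, with 8.57 on HRFI day 42 replicate 4 and 8.48 on HRFI day 35 replicate 3. POSTN differed by −0.54 (SE 0.20, adjusted p = 0.472). With the smallest p among the higher genes were COL4A3BP (0.41, SE 0.17), PDGFRA, a receptor for platelet-derived growth factor on fibroblasts (0.17, SE 0.12), and COL15A1 (0.14, SE 0.10). All 9 fibrillar collagens had lower means at day 42 in HRFI, and 8 of 9 in LRFI, none of them past the threshold.

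The comparison of the lines asks how the duodenum of birds selected for low residual feed intake differs from that of birds selected for high residual feed intake. At day 35, 5 of 64 genes had an unadjusted p under 0.05 (3 higher and 2 lower in LRFI), where 6.66% of all probe sets had one and 0% passed. VCAN, versican, a large proteoglycan of loose matrix, read 5.33, 5.50, 5.98 and 5.34 in LRFI day 35 and 4.68, 5.49, 4.47 and 5.0 in HRFI day 35. The LRFI arrays lay above the HRFI arrays but for HRFI replicate 2. HRFI replicate 3, the lowest, is the one with pancreatic enzymes, and without both such arrays the difference was 0.48 (SE 0.18). Over all arrays the difference was 0.63 (SE 0.18, adjusted p = 0.61), and the other probe set of VCAN, which moved with it across the arrays (r = 0.81, n = 16), differed by 0.43 (SE 0.19). FBN1 (0.38, SE 0.14) and COL4A3BP (0.37, SE 0.17) were next among the higher genes.

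Lower in LRFI at day 35 were COL13A1, a membrane collagen of cell adhesion sites (−0.32, SE 0.11, adjusted p = 0.672), COL4A6, a chain of the collagen IV network around smooth muscle (−0.31, SE 0.13), and COL17A1, which anchors epithelial cells to the basement membrane (−0.60, SE 0.29). COL17A1 read 7.18, 7.19, 8.02 and 8.28 in HRFI day 35, with 8.02 on the array with pancreatic enzymes, and 6.80 to 7.29 in LRFI day 35. COL9A1, a chain of fibril-attached collagen IX, was the one gene of 64 whose LRFI arrays all lay above its HRFI arrays, as did those of 0.994% of all probe sets. The groups nearly touched, at 5.904 for the lowest LRFI array and 5.902 for the highest HRFI array. The dimmer COL9A1 probe sets had r of −0.20 and 0.13 with the chosen one, which is the one described here. It averaged 5.99 ± 0.12 in LRFI day 35 and 5.84 ± 0.045 in HRFI day 35 (SD, n = 4 each), a difference of 0.15 (SE 0.089, adjusted p = 0.817).

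At day 42, 3 of 64 genes had an unadjusted p under 0.05 for the line difference (1 higher and 2 lower in LRFI), where 5.57% of all probe sets had one and 0.0026% passed. COL21A1, a fibril-associated chain, averaged 5.84 ± 0.32 in LRFI day 42 and 5.52 ± 0.044 in HRFI day 42 (SD, n = 4 each), a difference of 0.32 (SE 0.14, adjusted p = 0.888) that was 0.19 without LRFI day 42 replicate 4. COL13A1 (0.19, SE 0.11) and LUM (0.40, SE 0.27) followed among the higher genes. COL19A1, another fibril-associated chain, averaged 4.91 ± 0.10 in LRFI day 42 and 5.11 ± 0.10 in HRFI day 42. All its LRFI arrays lay below all its HRFI arrays, as did those of 2.69% of all probe sets, and the difference was −0.21 (SE 0.084, adjusted p = 0.876). COL6A2 (−0.61, SE 0.24, adjusted p = 0.857) and COL8A2, a short network-forming chain (−0.25, SE 0.15), were the other genes named lower.

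Averaged over both ages, 5 of 64 genes had an unadjusted p under 0.05 between the lines (3 higher and 2 lower in LRFI), where 5.48% of all probe sets had one and 0% passed. The members leaned upward in LRFI, 40 of 64 (62.5%) being higher with a median difference of 0.04. Over all probe sets 44.8% were higher, with a median of −0.01, and of named genes 47.0%. This share was not tested either, and the array means of the 64 genes overlapped between the lines at both ages. The median difference of the members was 0.0118 without LRFI day 35 replicate 3 and 0.0241 without the 5 arrays with high actin differences. Without the 5 arrays with high actin differences the median at day 35 was 0.0026, against 0.08 with all arrays. LUM, a proteoglycan that regulates fibril spacing, averaged 10.11 ± 0.32 in LRFI day 42, 9.70 ± 0.18 in HRFI day 42, 10.13 ± 0.56 in LRFI day 35 and 9.68 ± 0.54 in HRFI day 35 (SD, n = 4 each). Its line difference of 0.43 (SE 0.19, adjusted p = 0.897) was of like size at both ages, with overlapping arrays at each. DCN averaged 11.49 ± 0.31, 11.18 ± 0.17, 11.32 ± 0.52 and 11.07 ± 0.54 in the same groups, a line difference of 0.28 (SE 0.18).

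VCAN averaged 5.22 ± 0.07 in LRFI day 42, 5.10 ± 0.17 in HRFI day 42, 5.54 ± 0.30 in LRFI day 35 and 4.91 ± 0.44 in HRFI day 35, so that most of its averaged line difference of 0.38 (SE 0.13, adjusted p = 0.845) came from day 35. POSTN averaged 6.94 ± 0.22, 6.85 ± 0.38, 7.48 ± 0.23 and 7.39 ± 0.36 in those groups, with a line difference of 0.09 (SE 0.14). COL5A2 (0.22, SE 0.10) was next by p among the higher genes, and COL8A2 (−0.23, SE 0.10), COL19A1 (−0.13, SE 0.06) and COL4A6 (−0.20, SE 0.095) had the smallest p among the 24 lower genes. By role, 6 of 9 fibrillar collagens, 3 of 4 collagen VI chains, 4 of 5 small proteoglycans and all 4 fibroblast cell markers were higher in LRFI, while 3 of 4 membrane collagens were lower, none of them past the threshold. The fibroblast cell markers had a median difference of 0.09, and none had an unadjusted limma p under 0.05. At each single age 3 of the 4 were higher in LRFI. THY1 was lower at day 35, and PDGFRA, a dim gene (mean 4.16), was lower at day 42.

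The interaction asks whether the line difference at day 42 departs from that at day 35. It had an unadjusted p under 0.05 for 3 of 64 genes (1 higher and 2 lower), where 6.34% of all probe sets had one and 0% passed. COL13A1 read 10.74, 10.86, 10.68 and 11.06 in LRFI day 42 and 10.70, 10.44, 10.71 and 10.74 in HRFI day 42. The day 35 arrays read 10.54, 10.46, 10.71 and 10.74 in LRFI and 11.07, 10.95, 10.99 and 10.72 in HRFI. LRFI was thus the higher line on average at day 42 and the lower one at day 35, with an interaction of 0.51 (SE 0.15, adjusted p = 0.708). The 5 dimmer probe sets of COL13A1 had correlations of −0.25 to 0.43 with it across the 16 arrays. COL12A1 (0.54, SE 0.26) and COL24A1, a fibrillar chain known from bone (0.65, SE 0.32), followed, with COL24A1 at 0.37 without LRFI day 35 replicate 4, and COL6A2 (−0.78, SE 0.33), FBN1 (−0.45, SE 0.20) and COL4A3BP (−0.46, SE 0.24) led in the other direction. The 4 membrane collagens COL13A1, COL17A1, COL23A1 and COL25A1 all had positive interactions (median 0.43), with means higher at day 42 in LRFI and lower at day 42 in HRFI, and apart from COL13A1 none had an unadjusted p under 0.05. COL17A1 read 8.26 and 8.02 on the arrays with pancreatic enzymes, LRFI day 42 replicate 2 and HRFI day 35 replicate 3. Over all arrays it ran from 6.76 to 8.28. COL25A1 was dim (mean 3.99), and the next brightest COL23A1 probe set had r = −0.37 with the chosen one.

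Across the 16 arrays several matrix genes followed the level of COL1A2. The chosen COL1A2 probe set ran from 9.57 on HRFI day 35 replicate 3 to 10.87 on LRFI day 35 replicate 2, and each group held arrays both above and below the middle of this range. When this level was fitted as a slope with limma over the 38431 probe sets of other genes, 9 of the 63 other members passed at an adjusted p under 0.05, all with a positive slope, where 0.0833% of probe sets and 19 of 13008 genes passed. They were COL3A1, COL4A2, COL6A3, COL4A5, SPARC, COL6A1, COL1A1, FN1 and NID1, which are some chains of collagens I, III, IV and VI with fibronectin, SPARC and nidogen. The other collagen IV chains, COL6A6 and the chosen COL6A2 probe set did not pass. COL3A1 had the smallest p, with a slope of 0.60 (SE 0.07, adjusted p = 0.000671) per unit of COL1A2 on the log2 scale, with r = 0.96 (permutation p = 1e-05, the smallest the permutations can give) and rho = 0.89 (permutation p = 3e-05). COL4A2, a chain of the basement membrane collagen IV, had a slope of 0.69 (SE 0.09, adjusted p = 0.00182) and r = 0.92. COL1A1, which joins COL1A2 in the same collagen I molecule, had a slope of 1.0 (SE 0.17, adjusted p = 0.0361) and r = 0.82.

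The count of genes depended on which arrays were kept. With the 4 group means in the fit 6 members passed (0.0624% of probe sets), and 5 of them were among the 9. Without the 2 arrays farthest from the median of COL1A2, which were HRFI day 42 replicate 1 and HRFI day 35 replicate 3, 3 members passed: COL3A1, COL4A2 and COL6A3, the only named genes that did (0.026% of probe sets). Without the 2 arrays with pancreatic enzymes 4 passed, COL1A1, COL3A1, COL4A2 and FN1, again the only named genes (0.026% of probe sets). Without the 5 arrays with high actin differences 9 passed of 10 named genes in all (0.0572% of probe sets), and 8 of these were among the first 9. COL3A1 and COL4A2 passed in all 5 of these fits, which use 1 COL1A2 probe set. Without the 2 arrays farthest from the median r was 0.95 for both, against 0.96 for COL3A1 and 0.92 for COL4A2 over 16 arrays.

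Which genes passed also depended on how COL1A2 was read. Its next brightest probe set had a mean of 10.18 and r = 0.65 with the chosen one, and 3 others above the median level had r of −0.27, −0.39 and 0.11. On the next brightest probe set 9 members passed (0.164% of probe sets), 5 of them among the first 9: COL1A1, COL6A1, COL6A3, FN1 and SPARC. COL3A1 (r = 0.74, adjusted p = 0.105) and COL4A2 (r = 0.78, adjusted p = 0.0681) were not among them. With the probe sets of each gene averaged, COL1A2 included, 4 members passed (0.0538% of genes): COL1A1, COL5A1, COL6A1 and FN1. In those averages COL3A1 had r = 0.58 (permutation p = 0.0183), rho = 0.64 (permutation p = 0.00959) and a slope with an adjusted p of 0.319. COL1A1, COL6A1 and FN1 passed with each of the 3 readings of COL1A2 over 16 arrays.

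**Figure D3:**
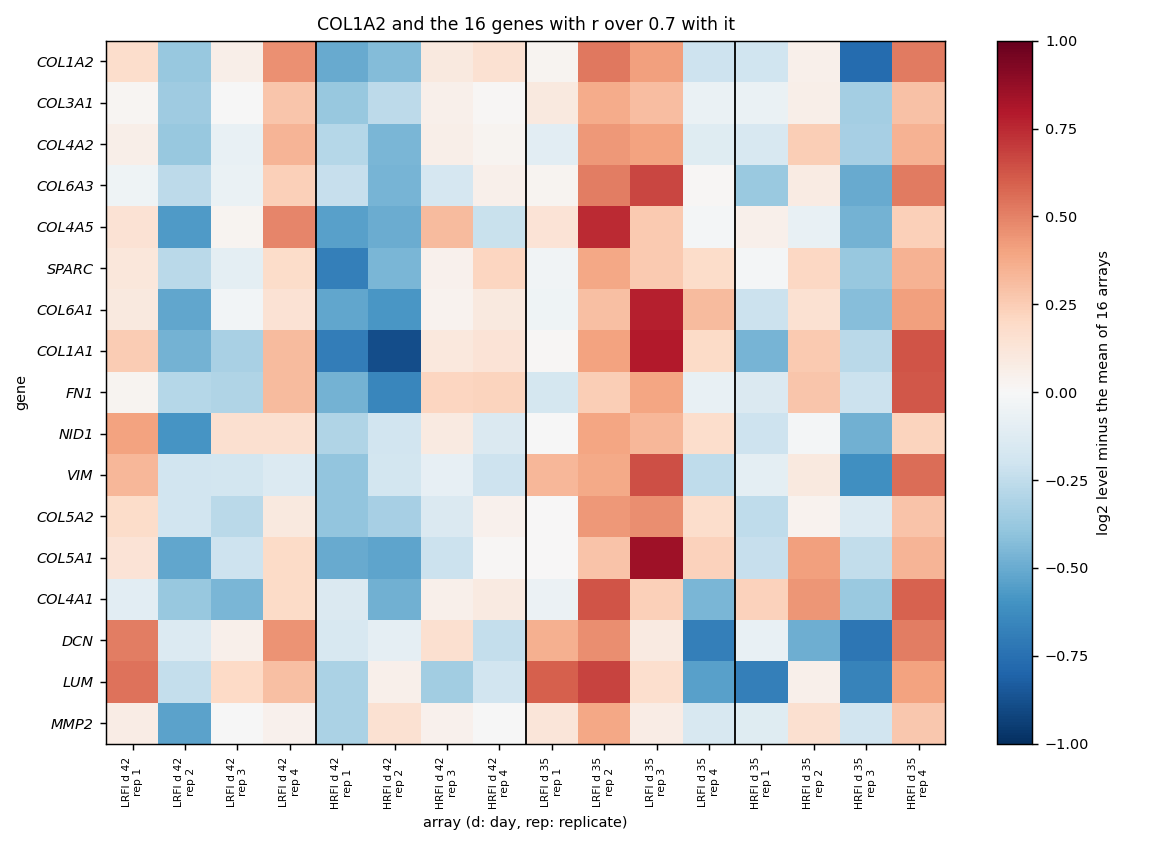
Log2 level minus the gene's mean over 16 arrays (colour) for COL1A2 and the 16 members with r of 0.70 or more with it (rows) on each array (columns, black lines between groups). Whole columns are red or blue from COL3A1 to MMP2, as on LRFI day 35 replicate 2 (high) and HRFI day 42 replicate 1 (low), and arrays of both kinds occur within a line and within an age. The rows were picked by r with COL1A2 on these same arrays, so shared colours within a column follow in part from that choice.

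Over all 63 members, r with the chosen COL1A2 probe set had a median of 0.34 and ran from −0.55 to 0.96, and 16 (25.4%) had r over 0.7, against 97 of 13008 named genes (0.746%) with a median of 0. Such an r was not particular to the members. It was reached by 37.5% of the smooth muscle genes described below (median 0.58) and 29.4% of 17 other basement membrane genes (median 0.42). In the other lists of genes described below the share was 0% to 12%. The 16 members included the fibrillar chains COL3A1, COL1A1, COL5A2 and COL5A1, the basement membrane genes COL4A2, COL4A5, COL4A1 and NID1, and LUM, DCN, VIM and MMP2, the gelatinase of connective tissue. POSTN (r = 0.44), MGP (r = 0.34) and TIMP2 (r = 0.31), which led the age differences, were not among them. None of the 10 fibril-associated chains, the 4 membrane collagens or the 5 remaining collagens reached 0.7, and COL6A2 was lowest at −0.55. With averaged probe sets 11 members had r of 0.70 or more, 7 of them among the 16, and these included the fibril-associated chains COL12A1 and COL20A1. On the 2 arrays with pancreatic enzymes COL1A2 and all 16 lay below their own means, as they did on HRFI day 42 replicate 1, and all 17 lay above them on LRFI day 35 replicates 2 and 3 and HRFI day 35 replicate 4. The 16 were picked by their r with COL1A2 on these same arrays. Their shared direction where COL1A2 was high or low is therefore partly fixed by that choice. These correlations describe 16 arrays that share 1 normalization, and the part of the pancreatic signal in them was not tested beyond the fits without those arrays.

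Markers of other cells of the wall moved with the chosen COL1A2 probe set as well. The mean of 16 smooth muscle genes, such as MYH11 and TAGLN of the contractile apparatus, ranged over 8.49 to 8.80 in LRFI day 42, 8.49 to 8.71 in HRFI day 42, 8.56 to 9.04 in LRFI day 35 and 8.47 to 8.96 in HRFI day 35, and 2 of the 16, ACTA2 and PLN, lay near the floor. Among 8 relations computed with list means and the actin difference, smooth muscle had r = 0.81 with COL1A2 (permutation p = 0.00022, adjusted 0.00176) and rho = 0.79 (permutation p = 0.00055), and r = 0.79 without the 2 farthest arrays. The mean of 13 endothelial genes had r = 0.67 (permutation p = 0.00444, adjusted 0.0178), rho = 0.69 (permutation p = 0.00377) and r = 0.72 without those arrays. The other 6 had adjusted permutation p-values of 0.0651 or more, from r = −0.54 for the pancreatic genes to r = 0.41 for leukocytes and for enteric glia and neurons. By ranks the pancreatic genes had the opposite sign, with rho = 0.14 (permutation p = 0.603). The 10 other named genes whose slope on COL1A2 passed included CALD1, MYH11 and MYLK of smooth muscle and NID2, the other nidogen (slope 0.56, SE 0.09, adjusted p = 0.0245). With age, 12 of the 16 smooth muscle genes were lower at day 42 (median −0.15), 5 of them with an unadjusted p under 0.05. Among all named genes 52.7% were lower, and 15.1% had such a p, 6.94% in the lower direction. Between the lines 12 of the 16 were higher in LRFI (median 0.08), none with such a p. Among all named genes 47.0% were higher in LRFI, 2.58% with such a p. The part of smooth muscle in the matrix differences was not tested.

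**Figure D4:**
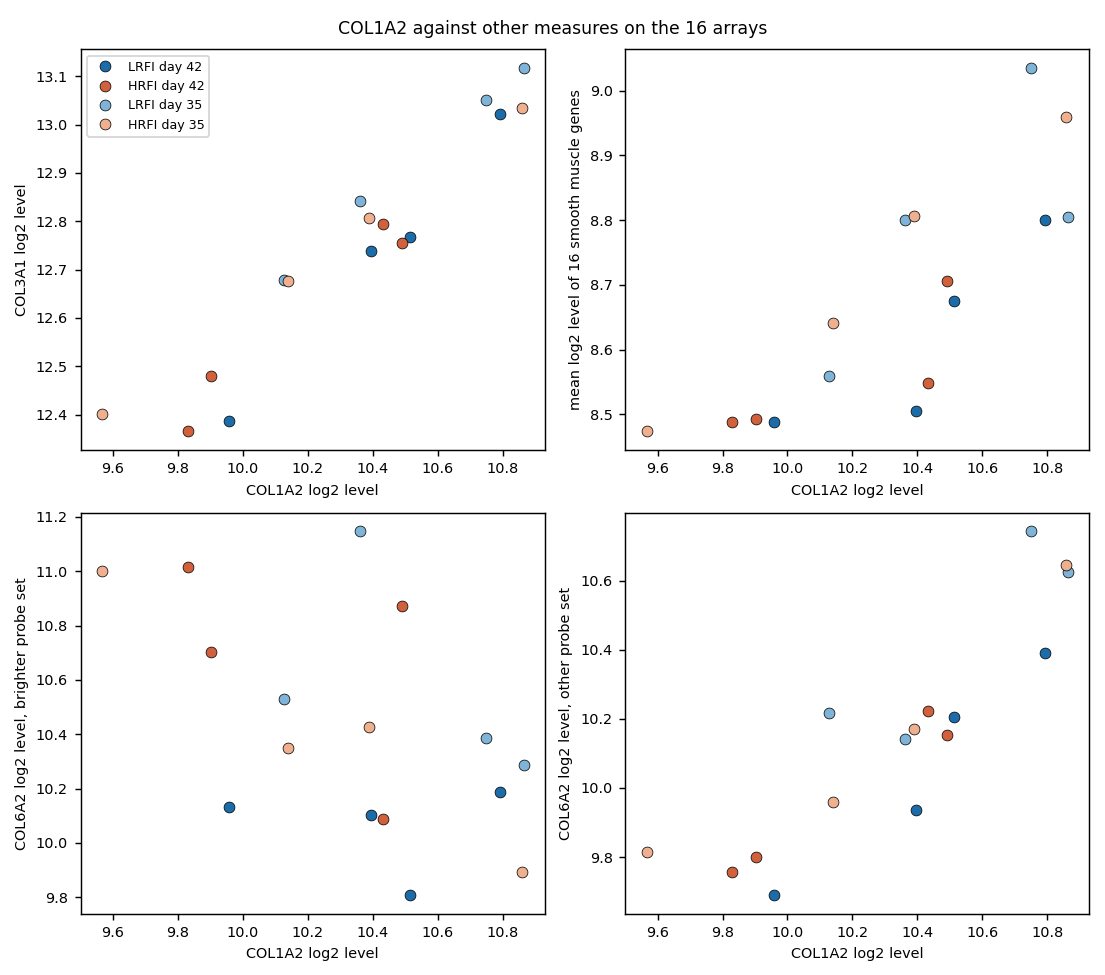
Log2 level on each of the 16 arrays (points, coloured by group) of COL3A1, of the mean of 16 smooth muscle genes and of both probe sets of COL6A2 (vertical axes) against COL1A2 (horizontal axes). COL3A1 (r = 0.96), smooth muscle (r = 0.81) and the dimmer COL6A2 probe set (r = 0.89) climb with COL1A2, and the brighter COL6A2 probe set does not (r = −0.55).

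Probe sets of a gene did not always move together. Of the 64 genes 43 had more than 1 probe set, which left 111 not chosen, and 32 of those were brighter than the median probe set. Of these 32, 14 had r over 0.7 with the chosen one and 6 had r below 0. COL6A2, which forms 1 molecule with COL6A1 and COL6A3, was an example. Its chosen probe set (mean 10.43) had r = −0.55 with COL1A2, its other one (mean 10.15) had r = 0.89, and the correlation between them was −0.39. At day 42 the lines differed by −0.61 (SE 0.24) on the chosen probe set and by 0.07 (SE 0.20) on the other, so the line, age and interaction values of COL6A2 hold for 1 probe set. Averaging the probe sets of a gene also brought the averaged age difference of TIMP2 to 0.22, of COL5A1 to −0.21 and of COL15A1 to 0.05, the interaction of COL13A1 to 0.19 and that of FBN1 to −0.15, and the day 42 line difference of COL19A1 to −0.06. Many probe sets in these averages were dim. Those not chosen had means of 3.04 for TIMP2, 3.19 and 2.98 for COL15A1, 3.38 and 2.71 for FBN1, and 3.39 and 3.29 for COL19A1. All of these lay under the floor of 3.75, and the dimmest COL5A1 probe set had a mean of 3.81. The smaller averages therefore do not by themselves show that probe sets disagree. The 3 next brightest FN1 probe sets moved with the chosen one, with r of 0.96, 0.97 and 0.90, while 4 dimmer ones had r of −0.35 to 0.53, and the next COL5A1 probe set had r = 0.90.

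Several members lie side by side in the chicken genome, by the RefSeq gene table of the assembly GRCg7b, to which all 64 matched by Entrez identifier. Across the arrays LUM and DCN had r = 0.79, COL4A1 and COL4A2 r = 0.83, and COL5A2 and COL3A1 r = 0.81. The neighbours COL4A3 and COL4A4 had r = 0.39, COL9A1 and COL19A1 −0.04, COL4A5 and COL4A6 −0.33, and COL6A1 and the chosen COL6A2 probe set −0.38. These are descriptions over 16 arrays without a test.

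Genes that work around the matrix were read from further lists, chosen with earlier results of these data known, and none of their genes passed in any of the averaged comparisons. Of all named genes 52.7% were lower at day 42, 15.1% had an unadjusted p under 0.05, and 6.94% had one in the lower direction. Of 24 collagen processing genes, 17 were lower at day 42 and 2 had an unadjusted p under 0.05: PPIB, a folding enzyme (−0.17, SE 0.064), and the procollagen protease ADAMTS14 (−0.21, SE 0.088). Of 25 genes of TGF-beta and PDGF signalling 18 were lower, 5 with an unadjusted p under 0.05, led by the growth factor PDGFD (−0.37, SE 0.11, adjusted p = 0.218) and the co-receptor ENG (−0.22, SE 0.087). Of 32 elastic fibre and glycoprotein genes 26 were lower, 5 with such a p, led by elastin ELN (−0.33, SE 0.10) and HAPLN1, which links hyaluronan to proteoglycans (−0.28, SE 0.10). Near the floor lay 6 of these 32 genes, against 0 to 2 genes in each of the other lists of this paragraph. TGFBI was counted both here and among the 25 signalling genes. Of 23 proteases and inhibitors 17 were lower, 5 with such a p, led by ADAMTS9 (−0.28, SE 0.072, adjusted p = 0.173) and PLAT (−0.19, SE 0.067). Of 23 receptors 14 were lower, and SDC1, a syndecan of epithelia (0.23, SE 0.069), and SDC2, one of mesenchyme (−0.32, SE 0.12), differed in opposite directions. Of 17 other basement membrane genes 11 were lower and none had an unadjusted p under 0.05, with PXDN at −0.23 (SE 0.11) and LAMA3 at 0.30 (SE 0.16).

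Between the lines, 47.0% of all named genes were higher in LRFI and 5.7% had an unadjusted p under 0.05. The same lists held some genes with such a p. P4HB, a subunit of the enzyme that hydroxylates collagen, was higher in LRFI by 0.16 (SE 0.062), and PLOD1, a lysyl hydroxylase, differed by −0.33 (SE 0.13). The growth factor PDGFC differed by −0.24 (SE 0.076), while TGFBR3, a co-receptor for TGF-beta read under the floor, differed by 0.13 (SE 0.069, unadjusted p = 0.0885). HAPLN1 differed by 0.25 (SE 0.10) and ECM2 by −0.36 (SE 0.17). Among the receptors GPC3, a glypican, differed by −0.28 (SE 0.081, adjusted p = 0.777) and integrin ITGA9 by 0.28 (SE 0.083, adjusted p = 0.803). None of the 17 other basement membrane genes, of which 13 were higher in LRFI, and none of the 23 proteases and inhibitors, of which 15 were higher, had an unadjusted p under 0.05.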

How the data were processed

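RNA was extracted with Trizol, and biotin-marked cRNA came from 6 ug of it, per the labels' protocols. The authors deposited log2 values per probe set, made with Partek 6.5 and RMA, per the submitters' processing notes, and the genome build is not given in the sources used here. RMA corrects background, sets the arrays to a common distribution and summarises probes, which compresses differences of dim probe sets. Values were used as deposited. Arrays give no read depth, so their number limits the precision. After 96 control probe sets were set aside, 38439 remained, of which 27168 had 1 gene symbol, 177 several entries and 11094 none, and only the first were named.

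The 4 group means were fitted jointly over 16 arrays with limma 3.58.1 (lmFit, eBayes) in R 4.3.3, and Benjamini-Hochberg adjustment ran over all probe sets of a comparison. The members, lists and tests were chosen with earlier results of these data known. The planned adjustment of the COL1A2 correlations over the 63 members alone was replaced by a limma slope adjusted over all probe sets, a choice made after seeing the data. Permutation p-values are two-sided, from 100000 permutations. Named genes were the 3 members with the smallest p in each direction of each comparison and 10 core genes (COL1A2, COL3A1, COL6A3, LUM, DCN, FN1, SPARC, VCAN, POSTN and VIM). From the further lists of genes around the matrix the 2 with the smallest p for the averaged line and age differences were named. Exceptions were the other basement membrane genes and the proteases and inhibitors, from which none was named for the line difference. The lists of cell types, such as smooth muscle, were not named by this rule. Genes that stand out by non-overlapping arrays, by their relation to COL1A2 or by membership of a small group were picked with their values in view. The fits were checked on simulated arrays with known answers.

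The labels do not say whether replicate numbers pair the arrays. Of 24 same-numbered pairs, correlations of deviations from the group means ran from −0.311 to 0.33, and 6 were over 0.1. These correlations cannot exclude a pairing, so the main fits took none and a fit with a replicate block was set beside them. The alternatives were a replicate block, trend and robust variances, unmoderated statistics, fits of the compared groups alone, the average of a gene's probe sets, bright probe sets only, median centring, an actin covariate, and leaving out arrays.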

Additional observations from a re-analysis of the deposited data

Results flagged for a closer look

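Of 116 sets of 4 arrays, for each named gene and the mean of all members in each group, 3 held an array far from the other 3, where chance alone marks about 1 in 20. COL13A1 read 10.44 on HRFI day 42 replicate 2, against 10.70 to 10.74 on the other HRFI day 42 arrays. COL24A1 read 7.30 on HRFI day 35 replicate 2, an array with a high actin difference, against 6.72 to 6.76 on the others of its group. VIM read 9.68 on LRFI day 42 replicate 1, where its group otherwise spanned 9.16 to 9.22.

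The line difference of COL13A1 turned between the ages: LRFI minus HRFI was 0.19 at day 42 and −0.32 at day 35, an interaction of 0.51. By limma's interaction term this did not pass (adjusted p = 0.708). These values hold for the chosen probe set, with which the dimmer COL13A1 probe sets had r of −0.25 to 0.43. The average of the COL13A1 probe sets had an interaction of 0.19.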

How the results depend on the processing

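No member passed in any of the 7 comparisons in 184 of 186 recomputed counts. In the other 2, for day 42 minus day 35 averaged over both lines, 1 member passed, MGP, with each gene tested by the average of its probe sets (adjusted p = 0.0456) and with only probe sets above the median level (adjusted p = 0.0499). Both used the same values of the 1 MGP probe set, adjusted over 13009 and 19219 features in place of 38439. Leaving out each array in turn, 0 members passed in each comparison, and the MGP difference ran from −0.60 to −0.47 with adjusted p-values of 0.0616 to 0.164. The count of members at an unadjusted p under 0.05 depended on single arrays: for LRFI minus HRFI at day 35 it ran from 3 without HRFI replicate 3 to 11 without HRFI replicate 4, averaged over both ages from 1 without HRFI day 35 replicate 3 or LRFI day 35 replicate 2 to 12 without HRFI day 35 replicate 4, and for the averaged age difference from 5 without HRFI day 42 replicate 2 to 13 without HRFI day 35 replicate 1, 3 or HRFI day 42 replicate 4. The median difference of the members kept its sign in the line and age comparisons but not its size. The line median was 0.0825 at day 35, 0.0205 without HRFI replicate 3 and 0.0026 without the 5 arrays with high actin differences. At day 42 it was 0.0788, and 0.0257 without HRFI replicate 2. The age median was −0.1184 in LRFI, −0.0605 without LRFI day 35 replicate 3, and −0.0904 in HRFI, −0.0256 without HRFI day 35 replicate 4. For the interaction it was −0.0176, from −0.0571 to 0.0626 leaving out 1 array, and 0.0886 without the 2 arrays with pancreatic enzymes.

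Of the 63 relations with COL1A2, 21 had an adjusted permutation p under 0.05 when adjusted over the members alone, a count not used because the members were chosen with results known. Adjusted over all probe sets, limma slopes, added after seeing the data, passed for 9 members, for 6 with group means in the fit, for 3 without the 2 arrays farthest from the median, for 4 without the 2 arrays with pancreatic enzymes and for 9 without the 5 arrays with high actin differences. They passed for 9 on the next brightest COL1A2 probe set and for 4 with averaged probe sets, both also added after seeing the data. The cause of these changes was not tested. Leaving out COL4A3BP was also added after seeing the data.

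The fit with the replicate block gave 0 members (MGP adjusted p = 0.071) and changed no member's call. Of 16 arrays, 4 correlated best with their own number. Over all probe sets it gave 19 calls for the averaged age difference, against 1 without it, and 11 for the age difference in HRFI, against 0. That averaged count was 25 with bright probe sets alone, 12 with gene averages, 9 without the arrays with high actin differences, 6 with trend and robust variances, 0 with the actin covariate, with unmoderated statistics or without the arrays with pancreatic enzymes, and 0 to 45 leaving out 1 array, the highest without LRFI day 35 replicate 1. For LRFI minus HRFI at day 42 it was 1, 5 with the compared groups alone, and 0 or 1 otherwise. Without LRFI day 35 replicate 1 the counts over all probe sets, 0 with all arrays, were 33 for the age difference in LRFI, 5 for the line difference at day 35 and 8 for the interaction. Fits of the compared groups alone give no averaged difference or interaction. With 4 arrays a group and RMA's compression at low signal, differences of dim genes such as COL10A1 and COL11A1 were hardly detectable.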
